A study of Mus musculus with 6 samples.

Results

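Mitochondrial ribosomal proteins are the protein part of the ribosome inside mitochondria, and their nuclear genes in the mouse carry the symbols Mrpl, for the large subunit, and Mrps, for the small subunit. The genes described here are the rows of the count tables whose symbol is Mrpl or Mrps followed by a number and at most 1 letter. The rule found 78 of 22488 rows, 49 for the large and 29 for the small subunit. The RNA came from whole livers of wild-type (WT) male C57BL/6 mice aged 6 to 8 weeks, kept on standard chow and fasted for 16 h. The LPS group (3 libraries) was given 6 mg/kg of lipopolysaccharide, a cell wall component of Gram-negative bacteria, into the abdominal cavity. The control group (3 libraries) received 200 µl of HBSS, a balanced salt solution, by the same route, although another label field gives these samples as having had no treatment. How long after the injection livers were taken is not stated, and all mice of both groups had been fasted. The series asks whether LPS inhibits signalling by the PPAR receptors and reduces lipid droplets in the liver.

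The mitochondrial ribosome, or mitoribosome, translates the few messenger RNAs encoded in mitochondrial DNA, which specify core subunits of the respiratory chain and of ATP synthase. Its ribosomal RNAs are made inside the organelle, while every one of its proteins is encoded in the nucleus, made in the cytosol and imported. The small subunit decodes the messenger RNA, and the large subunit joins the amino acids and passes the chain out through a tunnel to the inner membrane. Many of the proteins have bacterial counterparts, and others are found only in mitochondria. Hepatocytes are rich in mitochondria and hold most of the liver's RNA.

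In these livers the mitoribosomal mRNAs did not move as a block. Of the 77 members that could be tested, 25 fell in LPS livers, 11 rose and 41 did not pass. Of the 48 large-subunit members that could be tested, 14 fell and 5 rose, against 31.0% of all 12078 tested genes that fell and 31.3% that rose, and 29 did not pass. Of the 29 small-subunit members, 11 fell, 6 rose and 12 did not pass. The called share was 39.6% of the large-subunit and 58.6% of the small-subunit members, against 62.3% of all tested genes, so neither share was above the background. The share that fell was 29.2% for the large and 37.9% for the small subunit, and the share that rose was 10.4% and 20.7%. The test is edgeR's quasi-likelihood F test on the deposited counts, 2-sided, with Benjamini-Hochberg adjustment over all 12078 genes and a threshold of 0.05. "Rose" and "fell" below mean that this threshold was passed.

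The median log2 fold change (LPS minus control) was -0.10 over the large-subunit members, with a range of -2.22 to 0.55. It was -0.27 over the small-subunit members, with a range of -1.26 to 0.94, and 0.01 over all tested genes. Among the large-subunit members 8 fell by at least 2-fold and 0 rose that much. Among the small-subunit members 3 fell and 0 rose by at least 2-fold. Of all tested genes 18.1% fell and 16.0% rose by at least 2-fold. Some counts changed when single libraries were left out. The number of large-subunit rises was 3 when control replicate 3 was left out and 2 when LPS replicate 1 was, and the median over the large subunit was -0.22 without LPS replicate 1 and -0.04 without control replicate 1 or without LPS replicate 2. The number of small-subunit rises was 3 without control replicate 3. Over all genes the rises were 3372 without control replicate 3 and 3431 without LPS replicate 1, against 3781 with all libraries. The number of small-subunit falls was 6 without control replicate 2, 6 without LPS replicate 3 and 7 without LPS replicate 2. For all genes the falls were 3526, 3615 and 3516 in these fits, against 3747 with all libraries. With an offset for GC content and transcript length, the split in the large subunit was 2 higher and 19 lower, and with scaling by library totals alone the split in the small subunit was 4 higher and 12 lower. All genes split into 3851 higher and 3845 lower with the offset, and into 3439 higher and 3981 lower with library totals.

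**Figure D1:**
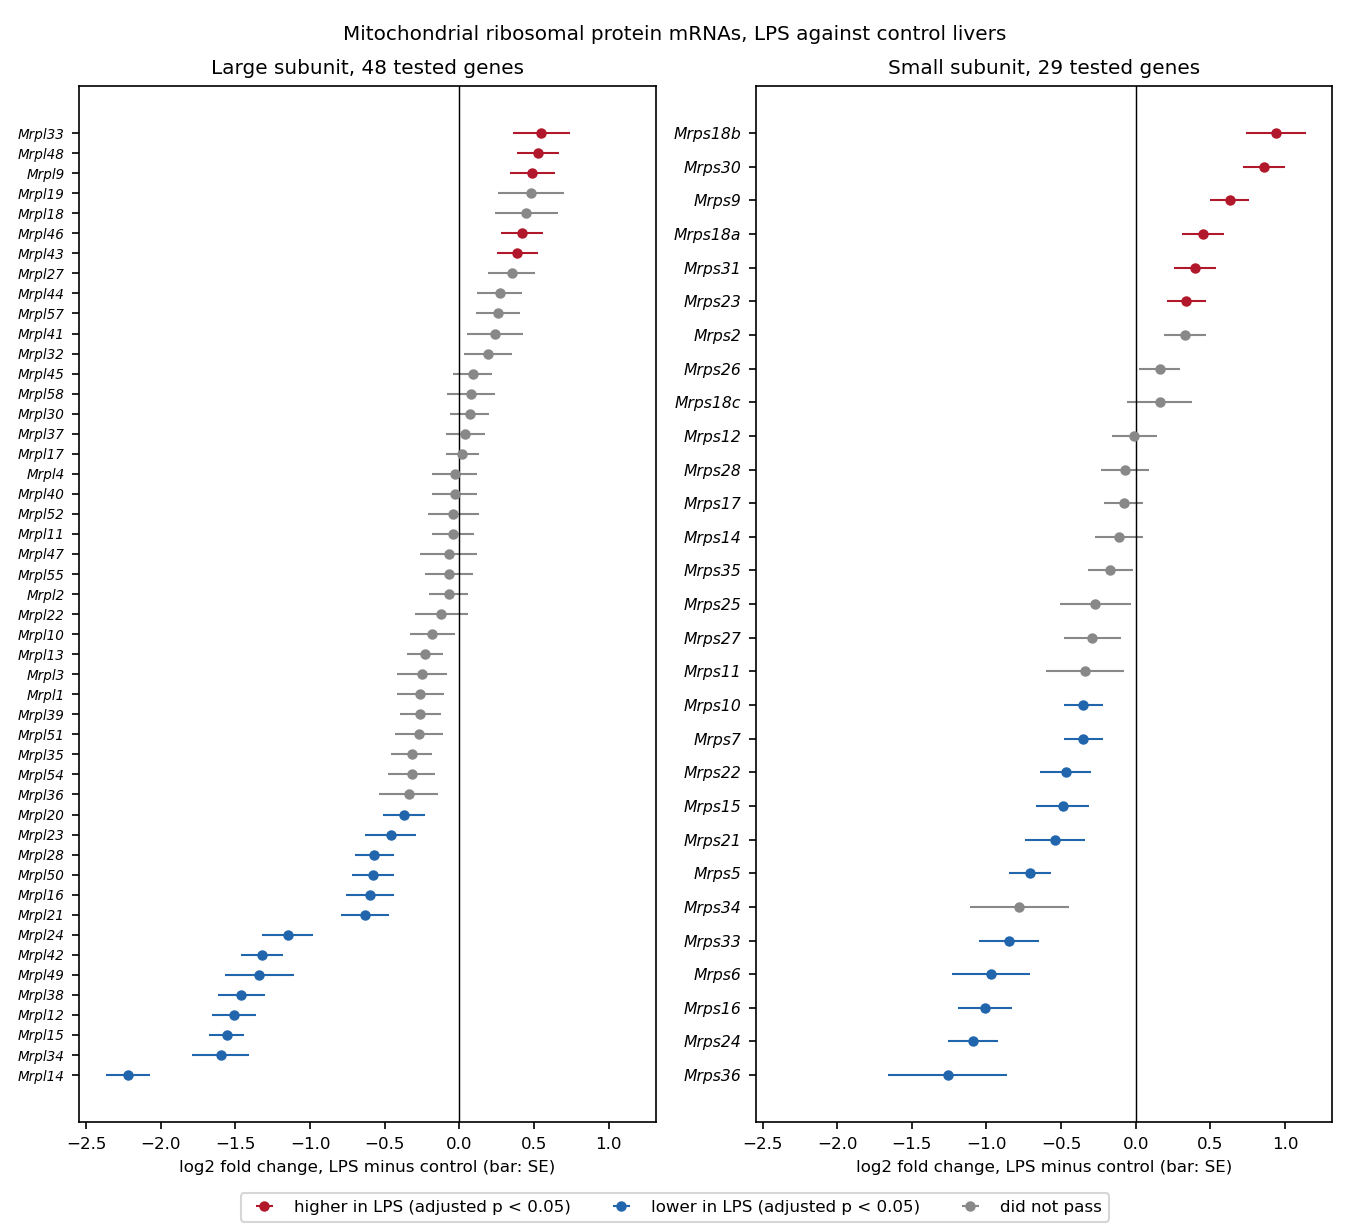
Log2 fold change, LPS minus control, of the 77 tested mitoribosomal protein genes, large subunit left and small subunit right, with the SE as a bar and the call as the colour. The falls reach -2.22 in the large and -1.26 in the small subunit, while no rise passes 0.94.

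The 6 libraries held between 11488525 and 20282004 counts, of which the members took 22393 to 44148 counts per library. Their share of all counts was 0.165% to 0.195% in the LPS libraries and 0.196% to 0.218% in the control libraries. Whole liver holds several cell types, and several of their marker lists moved with treatment. For the marker counts that follow, 31.0% of all tested genes fell and 31.3% rose. The summed level of 10 hepatocyte markers, all of them detected, was 71716 to 97839 CPM (counts scaled to a common library size) in LPS livers and 110263 to 124091 CPM in control livers, and 7 fell and 1 rose. Of 8 neutrophil markers 7 could be tested and all 7 rose, with sums of 165 to 205 CPM in LPS and 5.14 to 8.31 CPM in control livers. Of 5 monocyte markers 4 rose, with sums of 1158 to 1532 and 4.83 to 9.63 CPM in LPS and control livers, and of 7 Kupffer cell markers 6 fell and 1 rose, with sums of 61.3 to 98.4 and 267 to 297 CPM. Of 4 tested cholangiocyte markers 3 rose and 1 fell, with sums of 117 to 138 and 19.4 to 32.2 CPM in LPS and control livers. Of 6 stellate cell markers 4 fell and 0 rose, of 7 endothelial markers 3 fell and 2 rose, and of 4 tested lymphocyte markers 1 fell and 0 rose, while the LPS sum over the control sum was 0.985, 0.983 and 1.06 for these 3 lists. Of 4 hemoglobin genes 2 rose, with sums of 318 to 443 CPM in LPS and 248 to 372 CPM in control livers. Fewer cells of a type and less RNA per cell cannot be told apart in whole tissue, and the part of cell makeup in the changes below was not tested.

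Sequences around the transcription starts of members are shown because these genes share a nuclear origin and are regulated from the nucleus. The promoters are those of the 3 members with the smallest adjusted p that had one in the table used, all of which fell, followed by that of Mrps18b, the member with the largest rise, which was chosen after its values were seen. Each runs from 250 bases before to 50 bases after the RefSeq transcription start, on the build GRCm38.p6. Mrpl14 is at chr17:45686099-45686398 on the plus strand, Mrpl12 at chr11:120484387-120484686 on the plus strand, Mrpl42 at chr10:95501900-95502199 on the minus strand, and Mrps18b at chr17:35916391-35916690 on the minus strand. Capitals mark matches on either strand to the motifs of NRF1 (GCGCANGC), ETS factors such as GABP (CCGGAAG), YY1 (AAGATGG), the E-box (CACGTG), CRE (TGACGTCA) and NF-kB (GGANTTTCC).
Mrpl14: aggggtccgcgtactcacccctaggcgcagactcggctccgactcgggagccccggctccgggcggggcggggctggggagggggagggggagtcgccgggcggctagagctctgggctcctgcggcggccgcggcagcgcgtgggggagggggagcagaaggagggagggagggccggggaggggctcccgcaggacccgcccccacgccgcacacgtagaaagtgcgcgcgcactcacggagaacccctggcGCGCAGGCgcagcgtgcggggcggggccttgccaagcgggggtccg
Mrpl12: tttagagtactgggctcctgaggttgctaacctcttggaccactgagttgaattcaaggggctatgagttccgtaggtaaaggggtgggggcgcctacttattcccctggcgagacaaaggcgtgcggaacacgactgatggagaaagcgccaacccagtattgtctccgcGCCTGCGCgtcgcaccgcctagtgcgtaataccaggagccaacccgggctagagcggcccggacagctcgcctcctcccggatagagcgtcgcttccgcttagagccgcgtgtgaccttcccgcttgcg
Mrpl42: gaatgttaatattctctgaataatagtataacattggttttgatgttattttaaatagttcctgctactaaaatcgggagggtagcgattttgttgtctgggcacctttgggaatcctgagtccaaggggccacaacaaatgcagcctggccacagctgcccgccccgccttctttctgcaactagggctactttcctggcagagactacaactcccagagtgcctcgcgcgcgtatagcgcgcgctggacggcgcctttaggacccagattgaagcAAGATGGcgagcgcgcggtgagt
Mrps18b: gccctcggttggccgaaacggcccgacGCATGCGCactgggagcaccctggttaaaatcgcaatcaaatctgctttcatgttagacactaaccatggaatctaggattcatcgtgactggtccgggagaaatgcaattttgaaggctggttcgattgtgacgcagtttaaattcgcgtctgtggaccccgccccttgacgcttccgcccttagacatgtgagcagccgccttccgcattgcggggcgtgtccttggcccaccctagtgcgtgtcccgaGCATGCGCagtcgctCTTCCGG

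Mrpl14 and Mrpl12 each held 1 match to the NRF1 motif, Mrpl42 held 1 to YY1, and Mrps18b held 2 to NRF1 and 1 to ETS. Counted from the transcription start, the matches began at 5 in Mrpl14, -79 in Mrpl12 and 28 in Mrpl42. Those of Mrps18b began at -223 and 29 for NRF1 and at 44 for ETS, and positive values lie after the start. NRF1, GABP and YY1 are nuclear factors known to act on genes of mitochondrial proteins. Of the 69 members with a RefSeq promoter, 30.4% held the NRF1 motif, against 20.0% of the promoters of 9626 tested genes. The ETS motif was in 36.2% of member promoters and 18.2% of all tested promoters, and the YY1 motif in 18.8% and 7.39%. The E-box was in 7.25% and 10.3%, the CRE in 2.90% and 3.17%, the NF-kB motif in 1.45% and 1.29%, and the CCAAT motif, not capitalised, in 39.1% and 38.7%. NRF1 matches stood in 6 of 23 promoters of members that fell, in 4 of 11 of members that rose and in 11 of 34 of members that did not pass. ETS matches stood in 6, 5 and 13 of the same promoters, and YY1 matches in 4, 1 and 8. A match is only a run of letters, and these windows were not assayed for binding.

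Large-subunit members that fell included the largest change of the whole family. Mrpl14 (chr17:45685722-45698495), the counterpart of a bacterial protein that faces the small subunit and is known in human cells as a docking point of assembly factors, had 11.1, 8.78 and 11.3 CPM in the LPS livers, against 47.6, 52.8 and 44.8 CPM in the control livers. All 3 LPS libraries lay far below all 3 control libraries. Its log2 fold change was -2.22 (SE 0.15, with an adjusted p of 1.86e-08), a level 4.67-fold lower in LPS livers. Its exons overlap Tmem63b on the opposite strand over 11.2% of their length, and whether the counting used strand is not stated in the sources.

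Mrpl34 (chr8:71464926-71465753), a small protein shared with bacteria, had 9.54, 9.35 and 7.98 CPM in the LPS livers, against 30.6, 30.8 and 20.2 CPM in the control livers. The ranges were apart, with control replicate 3 the lowest control library. Its log2 fold change was -1.60 (SE 0.19, with an adjusted p of 6.16e-06). Mrpl15 (chr1:4773198-4785750), also shared with bacteria, had 22.6, 19.0 and 21.2 CPM in the LPS livers, against 61.2, 64.9 and 58.8 CPM in the control livers. Its replicates were tight in both groups and did not overlap. Its log2 fold change was -1.56 (SE 0.12, with an adjusted p of 1.38e-07).

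Mrpl12 (chr11:120484637-120488754) forms the stalk that recruits translation factors to the ribosome, and in human cells it is also known to bind the mitochondrial RNA polymerase. It had 17.1, 14.5 and 15.0 CPM in the LPS livers, against 43.2, 51.1 and 38.1 CPM in the control livers. Every LPS library was below every control library, with a log2 fold change of -1.51 (SE 0.15, with an adjusted p of 9.12e-07). Mrpl10, which anchors Mrpl12, and Mrpl11, at the base of the stalk, had log2 fold changes of -0.18 and -0.04 and did not pass. Their difference from Mrpl12 was not tested.

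A further 10 large-subunit members fell. Mrpl38, Mrpl49, Mrpl42 and Mrpl24 had log2 fold changes of -1.46, -1.34, -1.32 and -1.15. Mrpl38 belongs to the central protuberance, the ridge of the large subunit that touches the small one, and Mrpl24 lies near the exit of the peptide tunnel. Below these 8 members there was a gap, since the next, Mrpl21, was at -0.63, followed by Mrpl16 (-0.60), Mrpl50 (-0.58), Mrpl28 (-0.57), Mrpl23 (-0.46) and Mrpl20 (-0.37). The calls of Mrpl23 and Mrpl20 were each lost in 4 of the 6 fits that left out a library.

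The 5 large-subunit members that rose had log2 fold changes of 0.39 to 0.55. Mrpl48 (chr7:100545779-100608301), a central protuberance protein found only in mitochondria, had 28.5, 25.4 and 24.2 CPM in the LPS livers, against 16.9, 19.2 and 18.0 CPM in the control livers. The LPS libraries were all above the control libraries, with a log2 fold change of 0.53 (SE 0.14, with an adjusted p of 0.00460), and it was the only one of the 5 whose call held under all 12 alternatives. Mrpl33 (chr5:31613951-31622644), shared with bacteria, had 26.2, 15.3 and 20.2 CPM in the LPS livers, against 12.9, 14.3 and 14.7 CPM in the control livers. The lowest LPS library was just above the highest control library, and the log2 fold change was 0.55 (SE 0.19, with an adjusted p of 0.0215). It was 0.32 without LPS replicate 1 (adjusted p = 0.161) and 0.13 with the GC and length offset (adjusted p = 0.541), and the call was also lost without control replicate 1 (adjusted p = 0.0678) and without control replicate 2 (adjusted p = 0.0516).

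Mrpl9 (chr3:94443154-94448708), shared with bacteria, had 51.8, 37.5 and 47.7 CPM in the LPS livers, against 28.3, 34.0 and 35.4 CPM in the control livers. The groups were apart by a small margin, with a log2 fold change of 0.49 (SE 0.15, with an adjusted p of 0.0104), and the call was lost without LPS replicate 1 (0.36, adjusted p = 0.0660). Mrpl46 (chr7:78775341-78783089), of the central protuberance, had 26.6, 22.3 and 26.2 CPM in the LPS livers, against 18.2, 20.2 and 17.6 CPM in the control livers. Its log2 fold change was 0.42 (SE 0.14, with an adjusted p of 0.0191), with no overlap between groups. The call was lost without control replicate 3 (0.36, adjusted p = 0.0827), when LPS replicate 1 was left out (0.35, adjusted p = 0.0779) and with the GC and length offset (0.30, adjusted p = 0.0582). The exons of Mrpl46 overlap those of Mrps11 on the opposite strand over 12.2% of their length. The remaining one, Mrpl43, had a log2 fold change of 0.39.

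**Figure D2:**
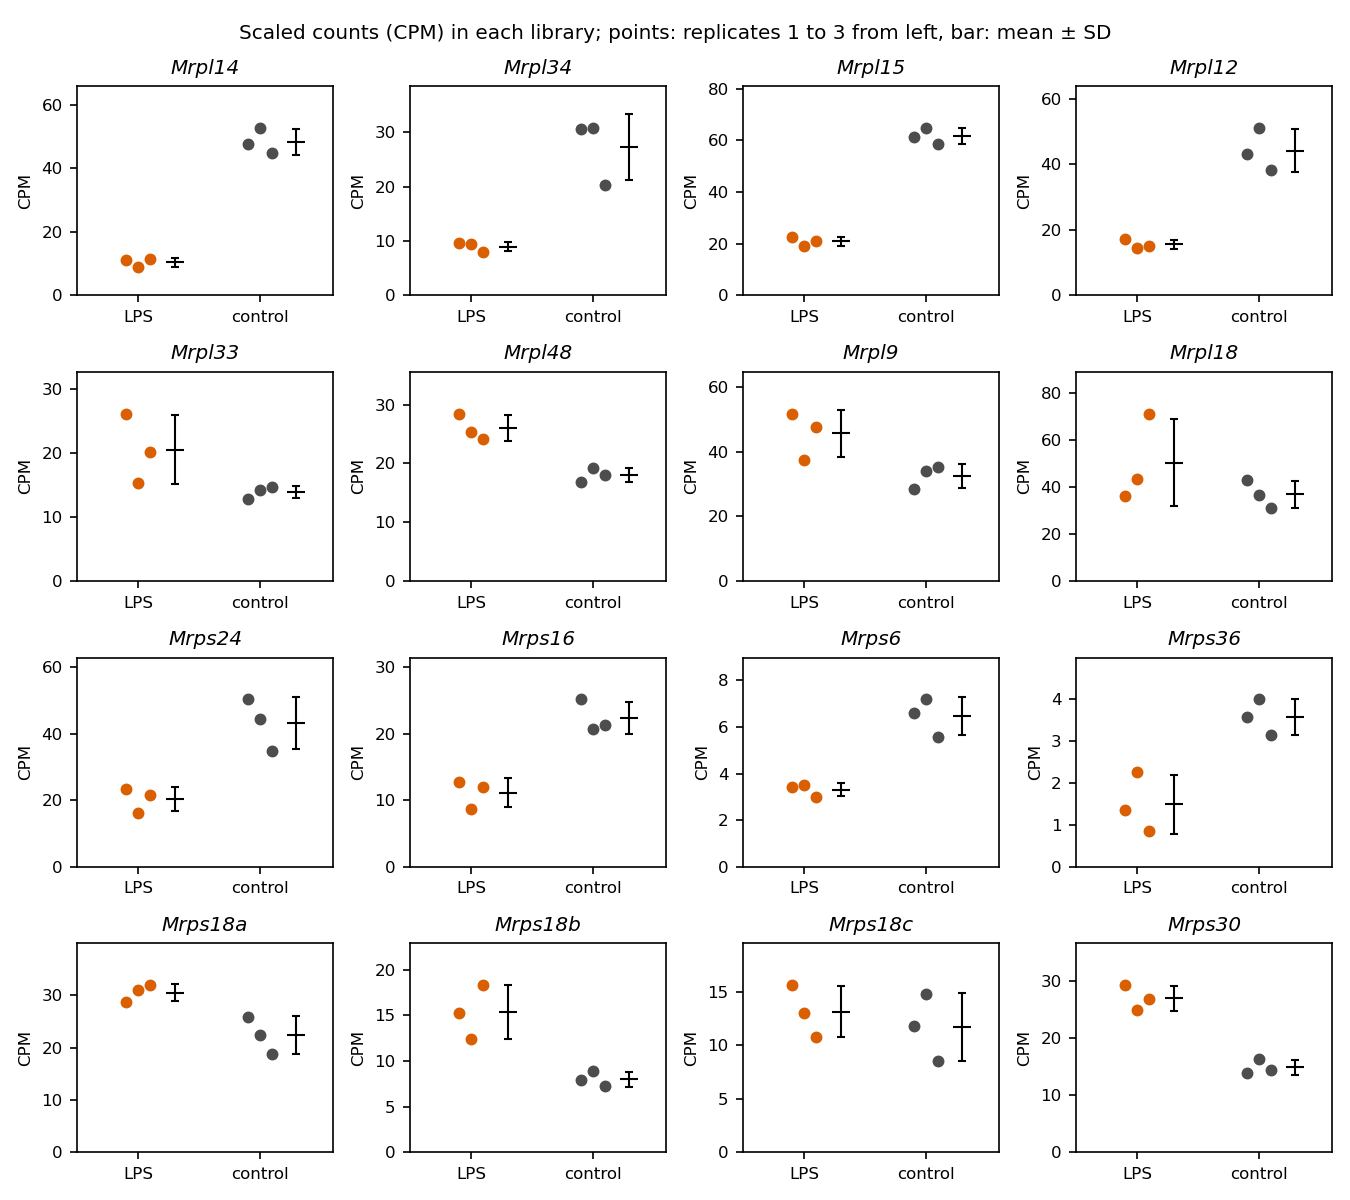
Scaled counts (CPM) of 16 members in each library, LPS left of control, with the mean and SD as a bar beside the points. Mrpl14 lies at 8.78 to 11.3 CPM in LPS and 44.8 to 52.8 CPM in control livers, while Mrpl18 and Mrps18c overlap between the groups.

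Among the large-subunit members that did not pass, Mrpl17 and Mrpl40 had the largest adjusted p. Mrpl17 (chr7:105803782-105811087), at the tunnel exit, had 85.0, 82.6 and 80.9 CPM in the LPS livers, against 86.9, 78.3 and 80.6 CPM in the control livers. The groups overlapped, with a log2 fold change of 0.02 (SE 0.11, with an adjusted p of 0.914). Mrpl40 (chr16:18872018-18876637), of the central protuberance, had 19.9, 17.4 and 18.1 CPM in the LPS livers, against 19.6, 20.7 and 16.3 CPM in the control livers, also overlapping. Its log2 fold change was -0.03 (SE 0.15, with an adjusted p of 0.875).

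The most abundant members per kilobase of transcript in LPS livers were Mrpl52, which also ranked first in control livers, and Mrpl30, which ranked below Mrpl52, Mrpl14 and Mrpl20 in control livers. Mrpl52 (chr14:54426909-54429750), found only in mitochondria, had 37.1, 33.9 and 42.2 CPM in the LPS livers, against 38.3, 47.8 and 29.5 CPM in the control livers. The control libraries bracketed the LPS ones, and the log2 fold change was -0.04 (SE 0.17, with an adjusted p of 0.864). Mrpl30 (chr1:37890477-37898338), shared with bacteria, had 65.4, 58.1 and 69.0 CPM in the LPS livers, against 60.5, 68.7 and 54.4 CPM in the control livers. The groups overlapped, with a log2 fold change of 0.07 (SE 0.13, with an adjusted p of 0.667). The transcript of Mrpl30 has 4 near-identical copies among processed pseudogenes, with 90.5% to 94.8% identity, so its count may include or lack reads of these.

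Some large-subunit members have known work outside the ribosome core. Mrpl58 (chr11:115403724-115412674) is a peptidyl-tRNA hydrolase built into the large subunit that frees chains from stalled ribosomes. It had 25.7, 22.1 and 19.7 CPM in the LPS livers, against 24.5, 21.8 and 17.6 CPM in the control livers. The groups overlapped, and the log2 fold change was 0.08 (SE 0.16, with an adjusted p of 0.707). Mrpl41 (chr2:24972470-24975098), found only in mitochondria, had 16.4, 17.8 and 18.7 CPM in the LPS livers, against 15.3, 18.3 and 11.0 CPM in the control livers. The overlap came from control replicate 2, and the log2 fold change was 0.24 (SE 0.19, with an adjusted p of 0.274).

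Mrpl18 (chr17:12911345-12917787), a central protuberance protein, had 36.2, 43.6 and 71.4 CPM in the LPS livers, against 42.9, 36.6 and 31.3 CPM in the control livers. It was the least even large-subunit member within LPS livers, with a coefficient of variation of 36.8%, since LPS replicate 3 stood well above the other libraries. Its log2 fold change of 0.45 (SE 0.21, with an adjusted p of 0.0752) did not pass, but it passed without LPS replicate 1 (0.62, adjusted p = 0.0158) and without the low count filter (0.41, adjusted p = 0.0255). Without LPS replicate 3 the log2 fold change of Mrpl18 was 0.13 (adjusted p = 0.506). The other 20 large-subunit members that did not pass had log2 fold changes of -0.34 to 0.48.

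Mrpl53 could not be tested, since it was at 0 in all 6 libraries. A count of 0 allows up to 0.148 to 0.261 CPM per library, taken as 3 counts, and this covers counting error only. Its whole transcript (695 bases, chr6:83109108-83109932) is also contained in the overlapping gene Gm42688, and the part of that overlap in the 0 was not tested.

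In the small subunit the falls were led by Mrps36 and Mrps24. Mrps36 (chr13:100735940-100744659) is named for the small subunit, but is known as an adaptor of the 2-oxoglutarate dehydrogenase complex of the citric acid cycle. It had 1.36, 2.25 and 0.855 CPM in the LPS livers, against 3.58, 3.99 and 3.14 CPM in the control livers. These were 12 to 32 counts per LPS library and 46 to 82 per control library, so it was the thinnest counted of the members that fell, and its coefficient of variation in LPS livers was 47.4%. The ranges did not overlap and the log2 fold change was -1.26 (SE 0.40, with an adjusted p of 0.0141). The call was lost without control replicate 2 (-1.18, adjusted p = 0.0518) and when LPS replicate 3 was left out (-0.96, adjusted p = 0.0532). Its transcript has 7 near-identical processed pseudogene copies.

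Mrps24 (chr11:5703982-5707701), shared with bacteria, had 23.2, 16.2 and 21.4 CPM in the LPS livers, against 50.3, 44.4 and 34.9 CPM in the control livers. The LPS libraries were all below the control libraries, with a log2 fold change of -1.09 (SE 0.17, with an adjusted p of 7.18e-05). Mrps24 was the most abundant small-subunit member per kilobase in control livers, at 43.4 CPM per kilobase, and had 20.3 CPM per kilobase in LPS livers. Mrps16 (chr14:20391222-20393634), also shared with bacteria, had 12.8, 8.64 and 12.0 CPM in the LPS livers, against 25.2, 20.8 and 21.3 CPM in the control livers. There was no overlap, and the log2 fold change was -1.01 (SE 0.18, with an adjusted p of 2.37e-04).

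Mrps6 (chr16:92058336-92112227), again shared with bacteria, had 3.41, 3.51 and 2.99 CPM in the LPS livers, against 6.62, 7.19 and 5.58 CPM in the control livers. The groups were apart, with a log2 fold change of -0.97 (SE 0.26, with an adjusted p of 0.00496). Its exons overlap those of Gm49711 and Slc5a3 on the same strand over 19.9% of their length. Mrps33 and Mrps5 followed at -0.85 and -0.71, and Mrps21 (-0.54), Mrps15 (-0.49), Mrps22 (-0.47), Mrps7 (-0.35) and Mrps10 (-0.35) fell by less. The calls of these last 5 were each lost in 3 or 4 of the 6 fits that left out a library, and the groups of Mrps21 overlapped. Mrps34 was at -0.78 and did not pass (adjusted p = 0.0533), although it passed in 5 of the 12 alternatives. The exons of Mrps34 overlap those of Mapk8ip3 and Nme3 over 37.0% of their length on the same strand and 63.4% on the opposite strand. Its 29 to 70 counts per LPS library and 77 to 103 per control library may therefore include or lack reads of these genes. Leaving out LPS replicate 3 gave -1.21 (adjusted p = 0.00655) for Mrps34, while leaving out LPS replicate 2 gave -0.52 (adjusted p = 0.184).

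The small-subunit rises included members of the S18 family, of which mammals keep 3 forms related to a single bacterial protein. Mrps18b (chr17:35910380-35916440), placed in the small subunit, had 15.3, 12.4 and 18.3 CPM in the LPS livers, against 7.95, 8.85 and 7.24 CPM in the control livers. All LPS libraries were above all control libraries, and the log2 fold change was 0.94 (SE 0.20, with an adjusted p of 9.46e-04), the largest rise of all members. Its exons overlap the antisense gene Gm16279 over 30.5% of their length, and a processed pseudogene matches 417 bases of it at 99.8%.

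Mrps18a (chr17:46111004-46128908), found in the large subunit in mammalian structures, had 28.6, 30.9 and 31.9 CPM in the LPS livers, against 25.9, 22.4 and 18.7 CPM in the control livers. The groups did not overlap, with a log2 fold change of 0.45 (SE 0.14, with an adjusted p of 0.0144), and the call was lost without control replicate 3 (0.32, adjusted p = 0.0905). Mrps18c (chr5:100798759-100804467), a small-subunit form, had 15.6, 13.0 and 10.8 CPM in the LPS livers, against 11.8, 14.8 and 8.52 CPM in the control livers. These overlapped, and the log2 fold change was 0.16 (SE 0.22, with an adjusted p of 0.559). The differences between the 3 forms in their response were not tested.

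Mrps30 (chr13:118380110-118387252), a mitochondria-only protein that structures place in the large subunit, had 29.3, 24.9 and 26.8 CPM in the LPS livers, against 13.9, 16.4 and 14.4 CPM in the control livers. The LPS libraries stood clear of the control libraries, with a log2 fold change of 0.86 (SE 0.14, with an adjusted p of 1.59e-04). Mrps9 (chr1:42851233-42905683), shared with bacteria, had 36.1, 35.9 and 33.8 CPM in the LPS livers, against 23.6, 24.6 and 19.9 CPM in the control livers. It too showed no overlap, with a log2 fold change of 0.63 (SE 0.13, with an adjusted p of 7.96e-04). The calls of Mrps18b, Mrps30 and Mrps9 held under all 12 alternatives, while those of Mrps31 (0.40) and Mrps23 (0.34) were lost under 5 and 8 of them.

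Mrps12 (chr7:28739641-28741821), which lines the decoding centre in bacteria, had 33.9, 25.0 and 28.6 CPM in the LPS livers, against 31.5, 31.2 and 25.6 CPM in the control livers. The groups overlapped, with a log2 fold change of -0.01 (SE 0.15, with an adjusted p of 0.944). Mrps28 (chr3:8802146-8923857) had 18.9, 17.6 and 24.1 CPM in the LPS livers, against 24.2, 20.7 and 18.7 CPM in the control livers. Its groups also overlapped, with a log2 fold change of -0.07 (SE 0.16, with an adjusted p of 0.747). Mrps27 (chr13:99344767-99415562), an RNA-binding protein of the pentatricopeptide repeat class, had 8.78, 8.92 and 11.1 CPM in the LPS livers, against 11.2, 11.6 and 12.4 CPM in the control livers. The ranges just missed each other, and its log2 fold change of -0.29 (SE 0.19, with an adjusted p of 0.190) did not pass. The other 7 small-subunit members that did not pass, apart from Mrps34, had log2 fold changes of -0.34 to 0.33.

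Members were also counted by range. In the large subunit 17 members had all 3 LPS libraries below all 3 control libraries and 6 had them above, while 25 overlapped. In the small subunit these were 12, 6 and 11 members. Of all tested genes 33.4% had the LPS libraries below and 34.0% above, which makes 67.4% without overlap.

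The summed level of each subunit moved little beside its strongest members. The 49 large-subunit members summed to 1302, 1105 and 1250 CPM in the LPS livers, against 1482, 1511 and 1335 CPM in the control livers. All LPS sums were below all control sums, and the ratio of means was 0.845 (LPS over control). The 29 small-subunit members summed to 606, 543 and 574 CPM in the LPS livers, against 655, 635 and 556 CPM in the control livers. These sums overlapped, with a ratio of 0.933. The small-subunit sum over the large-subunit sum was 0.466, 0.491 and 0.459 in LPS livers and 0.442, 0.421 and 0.416 in control livers, higher in every LPS library. With Mrps18a and Mrps30 counted with the large subunit and Mrps36 left out, as in the structures, the ratio of the sums was 0.402, 0.418 and 0.393 in LPS livers and 0.402, 0.383 and 0.380 in control livers, so the groups overlapped. Under that assignment 14 of 50 tested large-subunit members fell (28.0%) and 7 rose (14.0%). Of 26 small-subunit members 10 fell (38.5%) and 4 rose (15.4%). Of all tested genes 31.0% fell and 31.3% rose.

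**Figure D3:**
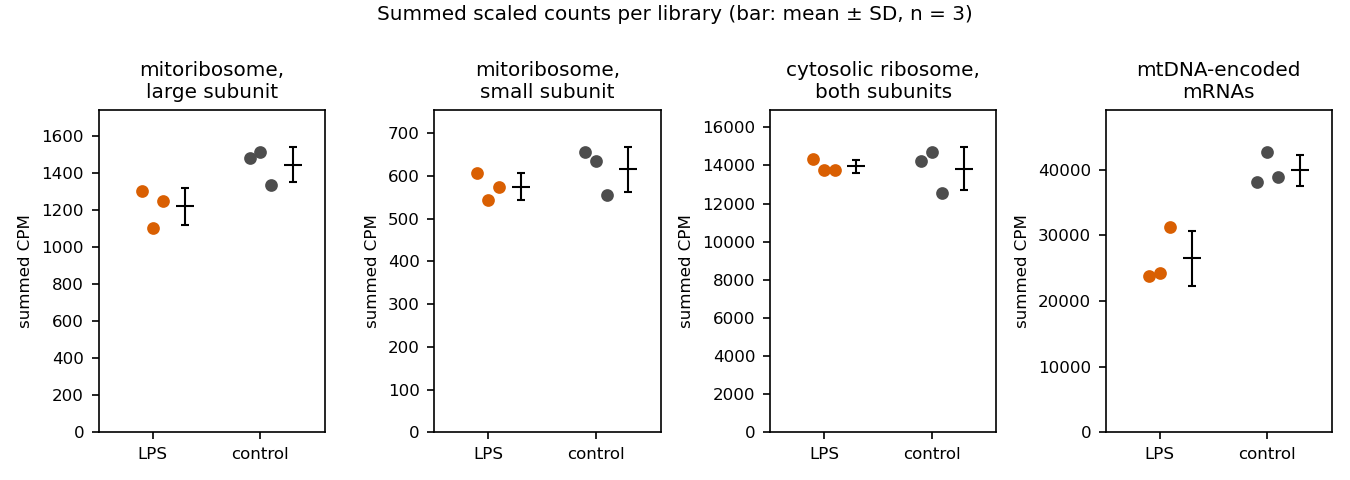
Summed CPM per library of the large and small mitoribosomal subunits, the cytosolic ribosomal proteins and the mRNAs encoded in mitochondrial DNA, LPS left of control, with mean and SD as a bar (n = 3 each). The large-subunit sums are 1105 to 1302 CPM in LPS and 1335 to 1511 CPM in control livers, and the cytosolic ribosome sums overlap.

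By origin, 10 of 29 large-subunit proteins shared with bacteria fell and 2 rose, with a median log2 fold change of -0.23. Of 19 tested large-subunit proteins found only in mitochondria 4 fell and 3 rose, with a median of -0.03. In the small subunit 8 of 18 shared proteins fell and 3 rose (median -0.23), and of 11 found only in mitochondria 3 fell and 3 rose (median -0.27). Of 8 proteins around the tunnel exit 2 fell, Mrpl24 and Mrpl23, and 0 rose. The 6 central protuberance proteins held both directions, since Mrpl46 and Mrpl48 rose and Mrpl38 fell. In the groups by origin the share that fell was 21.1% to 44.4%, against 31.0% of all tested genes. The share that rose was 6.90% to 27.3%, against 31.3%. These groups are small and were not tested against each other.

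Levels of different members are given per kilobase of 1 annotated transcript, and their order depends on which transcript is used. Mrpl17, at a mean of 82.8 CPM in LPS livers, had 11.3 CPM per kilobase with a transcript of 7300 bases. The exons of Mrps25 overlap Nr2c2 on the opposite strand over 69.8% of their length. Mean levels of tested large-subunit members ran from 2.30 (Mrpl19) to 90.2 (Mrpl52) CPM per kilobase in LPS livers, with a median of 14.6, and from 1.64 to 92.3 with a median of 19.7 in control livers. Those of small-subunit members ran from 0.996 (Mrps25) to 34.5 (Mrps18a) with a median of 14.2 in LPS livers, and from 1.20 (Mrps25) to 43.4 (Mrps24) with a median of 13.1 in control livers. The order of members was largely shared between LPS and control livers, with a Spearman correlation of 0.85 across the 77 members. The SD of the log2 level per kilobase across members was 1.26 to 1.30 in LPS libraries and 1.20 to 1.29 in control libraries. Across members the log2 fold change had a Spearman correlation of -0.18 with the control level per kilobase, 0.18 with transcript length and -0.16 with GC content. The control libraries enter both sides of the first of these values, which by itself tends to make it negative. Over 11962 tested genes the correlation was -0.00 with transcript length and -0.07 with GC content. The member values are descriptions over 77 genes that share libraries, and genes are not replicates.

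**Figure D4:**
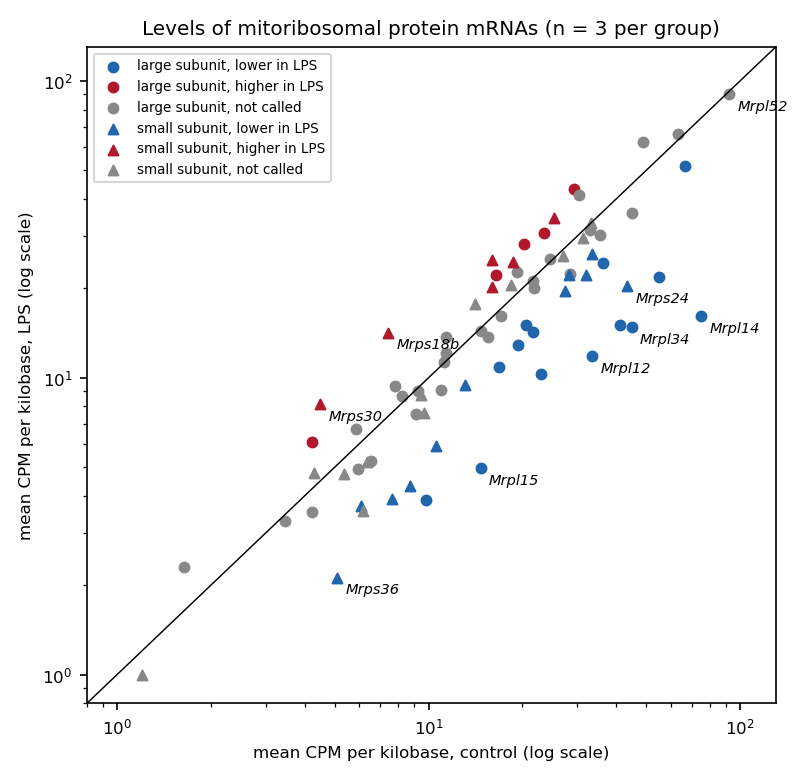
Mean CPM per kilobase of each tested member in LPS livers (vertical) against control livers (horizontal), both on log scales, with circles for the large and triangles for the small subunit. Mrpl14 lies at 16.1 in LPS against 75.1 in control livers, while Mrpl52 lies on the line of equal level at 90.2 and 92.3.

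Where a member sits in the genome can bear on its count. A protein-coding gene started on the opposite strand within 1000 bases, with at most 200 bases of overlap, for 23 of the 78 members, or 29.5%, against 8.15% of 20686 genes. The 20686 genes include many that could not be tested, while all members but Mrpl53 could, so the shares rest on unlike sets of genes. Starts were taken as the outer gene ends in the GENCODE annotation. Mrpl46 and Mrps11 are not among the 23, although their RefSeq starts lie at chr7:78783089 (minus strand) and chr7:78783131 (plus strand). Of the 21 partners of these 23 members that could be tested, 4 were called along with their member. Only 6 of the 23 members were called, and 62.3% of all tested genes were. Whether pairs moved together more or less often than other genes was not tested. Mrps5 and Zfp661 both fell. The other 3 pairs went opposite ways, since Mrps18b rose and its partner Ppp1r10 fell (-0.67), while Mrps7 and Mrpl21 fell and their partners Gga3 (0.69) and Ighmbp2 (0.87) rose. Mrpl49 fell by 1.34 on the log2 scale, while Fau, the ribosomal protein gene that starts 59 bases away, was at -0.04 and did not pass. Of the 78 members 31 had a transcript of another gene with at least 90% identity over at least 300 bases, mostly processed pseudogenes or overlapping genes. Not every copy or overlap was given with its member above. The exons of Mrps24 overlap Urgcp on the same strand over 15.4% of their length. On the opposite strand those of Mrpl24 overlap Rrnad1 over 26.3% and those of Mrpl43 overlap Twnk over 33.4%. Mrpl12 has a processed pseudogene copy with 94.0% identity over 597 bases. Among the 40 members with neither such a copy nor over 10% of exon overlap, 11 fell and 6 rose (median -0.08), and among the other 37 tested members 14 fell and 5 rose (median -0.23). The shares that fell were 27.5% and 37.8%, against 31.0% of all tested genes. Those that rose were 15.0% and 13.5%, against 31.3%.

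Proteins of the mitoribosome that carry other names included changes of both signs. Dap3, a GTP-binding protein of the small subunit, had 49.0, 48.6 and 56.6 CPM in LPS livers, against 35.8, 26.3 and 30.8 CPM in control livers. The groups were apart, and the log2 fold change was 0.73 ± 0.14 (SE), adjusted p = 3.98e-04. Ptcd3, a pentatricopeptide repeat protein of the small subunit, had 8.52, 13.5 and 14.0 CPM in LPS livers, against 31.9, 30.0 and 29.2 CPM in control livers, and fell (-1.33 ± 0.18 (SE), adjusted p = 2.13e-05). Chchd1 and Gadd45gip1 also fell, at -0.74 and -0.53. Aurkaip1, the most abundant of the 5, was at -0.01.

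Factors that work on the mitoribosome are given next, beside 31.0% of all tested genes that fell and 31.3% that rose. Of 12 tested translation factors 8 fell (66.7%) and 0 rose, with a median log2 fold change of -0.69. Gfm2, which helps recycle ribosomes, had 10.6, 14.1 and 10.3 CPM in LPS livers, against 43.6, 38.1 and 41.6 CPM in control livers. It fell by 1.81 on the log2 scale (adjusted p = 2.26e-07). Gfm1, the elongation factor that moves the ribosome along the message, fell by 1.01 on the log2 scale, and Tufm, which delivers aminoacyl-tRNA, fell by 1.66 on the same scale. Of 20 tested genes for mitochondrial tRNA charging 11 fell and 2 rose, with a median of -0.68. Nars2 and Aars2, which charge the tRNAs for asparagine and alanine, were at -2.39 and -2.11, and Iars2, for isoleucine and the most abundant, at -0.90. All 3 fell.

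Of 29 genes for mitoribosome assembly and ribosomal RNA modification 11 fell and 4 rose, with a median of -0.35. These were 37.9% and 13.8%, against 31.0% of all tested genes that fell and 31.3% that rose. The largest rise was in Ddx28, an RNA helicase of large-subunit assembly. It had 129, 140 and 167 CPM in LPS livers, against 18.0, 20.2 and 20.6 CPM in control livers, with a log2 fold change of 2.89 ± 0.14 (SE) and adjusted p = 1.12e-09. Trub2, a pseudouridine synthase, rose by 1.53 on the log2 scale, and Mtg1, a GTPase of large-subunit assembly, fell by 1.96. The 4 rises were 2 without control replicate 3.

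Genes for upkeep and expression of mitochondrial DNA held 10 that fell and 2 that rose of 19 tested, with a median log2 fold change of -0.51. These were 52.6% and 10.5%, against 31.0% of all tested genes that fell and 31.3% that rose. Hsd17b10, a part of the mitochondrial RNase P and an enzyme of isoleucine breakdown, fell by 2.55 on the log2 scale. Pnpt1, an exoribonuclease, rose by 1.75. Tfam, the factor that packages mitochondrial DNA, was at 0.09 and did not pass. Of the 13 mRNAs that the mitoribosome translates 8 fell (61.5%) and 0 rose, with a median of -0.69. mt-Nd2, a complex I subunit, had 3316, 3142 and 3726 CPM in LPS livers, against 6221, 7440 and 6329 CPM in control livers, with no overlap (-0.97 ± 0.15 (SE), adjusted p = 5.43e-05). mt-Co3, of cytochrome oxidase, fell by 0.89 on the log2 scale. mt-Co1, the most abundant, was at -0.38 and did not pass (adjusted p = 0.0727), although it passed in 6 of the 12 alternatives. Mitochondrial DNA gave 2.44% to 2.85% of all counts in LPS libraries and 3.90% to 4.32% in control libraries.

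Nuclear regulators of these genes showed 5 rises and 2 falls among 10, with a median log2 fold change of 0.31. For comparison, 31.3% of all tested genes rose and 31.0% fell. Whether this list of only 10 genes differed from that background was not tested. Gabpb1, a subunit of GABP, had 28.0, 33.7 and 28.1 CPM in LPS livers, against 8.03, 11.7 and 9.93 CPM in control livers, and rose by 1.59 on the log2 scale (adjusted p = 2.39e-06). Pprc1, a coactivator related to PGC-1, rose by 1.29 and Nrf1 by 0.90, while Ppargc1a, which encodes PGC-1alpha, fell by 1.94. Yy1, the most abundant, was at -0.23 and did not pass. The 5 rises were 3 with scaling by library totals alone, without control replicate 2 or 3, and without LPS replicate 1 or 2.

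Other mitochondrial lists are given for scale, beside 31.0% of all tested genes that fell and 31.3% that rose. Of 25 genes for import and inner structure 15 fell and 1 rose (median -0.39), with Phb, a prohibitin, at -1.60, Mfn2, a fusion protein, at -1.41, and Hspa9, the most abundant and an import chaperone, at -0.41. Of 37 genes named as complex I subunits 28 fell and 0 rose (median -0.54), with Ndufs7 at -1.60, Ndufa6 at -1.43 and Ndufa4, the most abundant, at -0.35. Of 80 tested cytosolic ribosomal protein genes 14 fell and 11 rose (median 0.01), with Rpl22l1 at 0.97 and Rpl27a at 0.82, while Rpl4, the most abundant, was at -0.22 and did not pass. The SD of the log2 fold change was 0.65 across the large-subunit and 0.58 across the small-subunit mitoribosomal members, against 0.32 across the cytosolic ribosomal proteins, 0.38 across the complex I genes and 1.52 across all tested genes. Whether any list differed from another was not tested. The cytosolic counts varied with the scaling and with single libraries. The rises were 6 with library totals only, 7 without the filter, 7 without control replicate 1, 6 without LPS replicate 1 and 5 without control replicate 3. Over all genes the rises were 3439, 3785, 3587, 3431 and 3372 in the same fits, against 3781 in the main fit. The cytosolic falls were 29 with the GC and length offset, 5 without LPS replicate 2, 6 without control replicate 2 and 8 without LPS replicate 3. For all genes the falls were 3845, 3516, 3526 and 3615 in these fits, against 3747.

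**Figure D5:**
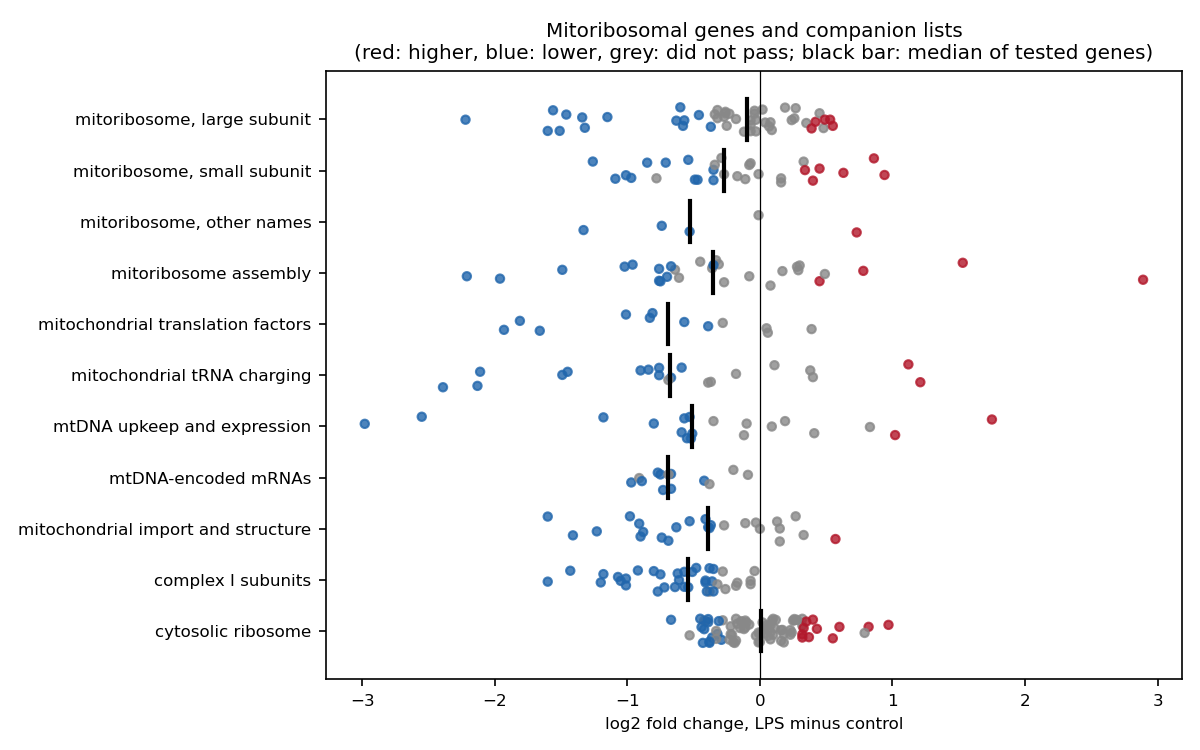
Log2 fold change, LPS minus control, of each tested gene in the mitoribosomal subunits and the companion lists, coloured by call, with the median as a black bar. The medians are -0.10 for the large and -0.27 for the small subunit, -0.69 for translation factors and 0.01 for the cytosolic ribosome.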

How the data were processed

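RNA of whole livers, 3 LPS and 3 control, was extracted with Trizol per the labels. For each library the authors deposited raw counts per gene, beside a symbol and an Entrez identifier, as whole numbers with no normalization. The tools bcl2fastq 2.0, HISAT2, StringTie, DESeq2 and limma and the build mm10 are named in the submitters' processing notes, without roles. The counting tool, annotation, strand setting and treatment of reads with several matches are not stated in the sources used here. The sample numbers in the file headers run in separate series for LPS and control, and what they stand for is not stated, so any difference in handling cannot be told apart from treatment.

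The 8-character fields shorten some names, so genes were named from the mouse reference (GRCm38.p6), 20722 of 22488 by Entrez identifier, 879 by symbol and 887 as deposited. Counts were compared in R 4.3.3 with edgeR 4.0.16 (TMM scaling, filterByExpr with a minimum count of 10 and total of 15 in 3 libraries, quasi-likelihood F test, 2-sided), with Benjamini-Hochberg adjustment over 12078 genes and a threshold of 0.05. CPM are counts brought to one library size with the TMM factors, and CPM per kilobase divides this by the length of the gene's longest GENCODE transcript, taken from those linked to a RefSeq mRNA where there are any. The biological coefficient of variation was 16.4%. Alternatives were DESeq2 1.42.0 and its size factors, library totals, no filter, a replicate block, a GC and length offset and each library left out. The fit was also run on simulated data in which only a small set of genes changed. That run cannot show how the scaling and calls behave here, where 62.3% of tested genes were called. Copies were searched with blastn 2.17.0 (at least 90% identity over 300 bases).

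The members, companion lists and tests were chosen with earlier results of these data known. Per subunit, the text names the 4 largest called falls and rises, the 2 most abundant per kilobase, the 2 largest adjusted p and a set fixed by name. Per companion list it names the most abundant gene and the 2 called genes of smallest adjusted p. Other genes were named after their values were seen. Nothing beyond the labels says that libraries came from separate mice, so p-values measure the spread between these 6 samples, which may be technical. The floor given for Mrpl53 covers counting error only. Each SE comes from the edgeR fit and includes the spread between libraries. Promoters are from RefSeq (GRCm38.p6).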

Additional observations from a re-analysis of the deposited data

How the results depend on the processing

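Of the 36 called members, 21 kept their call under all 12 alternatives and 15 lost it under at least 1, and 0 changed sign. Of the 432 alternative fits of these called members 54 lost the call. Of the 41 members not called, 12 passed under at least 1 alternative, in 22 of 492 fits, with Mrps34 passing most often (5 of 12). In the large subunit the number that rose, 5, was 2 with the GC and length offset and 2 to 7 with a library left out, and the number that fell, 14, was 12 to 16. In the small subunit the number that rose, 6, was 3 to 6, and the number that fell, 11, was 6 to 10 with a library left out. Over all genes the rises were 3372 to 3635 with a library left out, against 3781, and the falls 3510 to 3615, against 3747. The median log2 fold change of the large subunit was -0.26 with the GC and length offset and -0.22 to -0.04 with a library left out, and that of the small subunit -0.27 to -0.19. Apart from the constructions themselves, the cause was not tested. The median of the cytosolic ribosomal proteins (0.01) turned to -0.05 with library totals, -0.02 without the filter, -0.18 with the GC and length offset, and lay between -0.06 and 0.04 with a library left out. The median of all genes was -0.055 with library totals, against 0.01.

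Replicates of the same number had correlations of their deviations of -0.000807, 0.104 and 0.0353, and those of different numbers -0.122 to 0.0743. Deviations were taken from the mean of each group of 3, which ties these values together, so they do not settle whether replicates were paired. With the number as a replicate block, 14 large-subunit members fell and 5 rose, 12 small-subunit members fell and 7 rose, and 3766 and 3780 of all genes fell and rose. Depth limits Mrps36 most among the called members, at 12 to 32 counts per LPS library.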
